A study of Mus musculus with 4 samples.

Results

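Vascular endothelial growth factors, angiopoietins and hepatocyte growth factor are secreted proteins that mesenchymal cells send to neighbouring endothelium and epithelium. The genes described here are 4 VEGF ligands (Vegfa, Vegfb, Vegfc, Vegfd), the VEGF receptors Flt1 and Kdr, the angiopoietins Angpt1 and Angpt2, Hgf and its receptor gene Met. They were taken by name, as array rows that carry exactly 1 gene symbol, and all 10 of 10 were found, with 1 row each, among 19938 genes tested.

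RNA was measured on 4 mouse expression arrays, with 2 samples, A and B, of a lung fibroblast culture carrying KrasD12 and 2 samples, A and B, of wild-type (WT) lung fibroblasts. KrasD12 and WT are the genotypes as the labels give them. Both lines were grown out of collagenase-digested lungs of mice aged 3 to 4 weeks, were kept in serum-containing medium and received no treatment. The labels describe the outgrowth as myofibroblasts, checked for purity by immunofluorescence. The titles give line number 493 for KrasD12 and 494 for WT, so an effect of the genotype and one of the line cannot be told apart. The labels name no driver of the genotype and do not say whether A and B were separate cultures, so p-values measure only the spread between these samples, which may be technical.

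In the lung, VEGF-A binds FLT1 and KDR on endothelial cells and drives the growth of blood vessels, VEGF-B binds FLT1 only, and VEGF-C and VEGF-D act on lymphatic endothelium through FLT4. ANGPT1 activates and ANGPT2 mostly opposes the endothelial receptor TEK. HGF is made by mesenchymal cells as an inactive precursor, is cut by serine proteases, and binds MET on epithelial cells, a route known for its part in epithelial growth and repair.

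The values are the deposited log2 values, and every difference is KrasD12 minus WT. A gene was called where limma gave an adjusted p below 0.05 (Benjamini-Hochberg, all 19938 genes), and is said to have risen or fallen only if it was also called in the same direction after quantile normalization, which gives the 4 columns 1 distribution. This second scaling was needed because the column medians were 6.24 and 6.26 for KrasD12 against 5.90 and 5.91 for WT. The median difference of all genes was 0.26 as deposited and -0.004 after quantile normalization. The deposited median difference was 0.39 for genes with a mean of 5 to 6 and 0.065 for those at 9 to 10. Centring each column on its median, a further scaling given below, shifts all genes of a column alike and does not follow this dependence on level. On the deposited values 62.1% of all genes were called, 50.1% higher and 11.9% lower in KrasD12. After quantile normalization 46.9% were called, 22.5% higher and 24.4% lower. On both scalings 33.9% were called, 22.4% as risen and 11.5% as fallen. Over 1210 rows for olfactory and vomeronasal receptors the median deposited difference was 0.33. The dim level, 5.15 on the log2 scale, is the level that 95% of these rows do not exceed on average. All 11 fibroblast markers of a fixed list, among them Col1a1 (12.09 to 12.76), Col1a2 (12.33 to 12.59) and Pdgfra (11.68 to 11.98), lay above it in each sample, and 2 of them rose and 4 fell. In bulk samples fewer cells of a type and less RNA per cell cannot be told apart.

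Hgf and Vegfb rose and Vegfd, Flt1 and Angpt2 fell in KrasD12, while Vegfa, Vegfc, Kdr, Angpt1 and Met were not called on both scalings. The 2 rises and 3 falls among 10 genes stand beside 22.4% and 11.5% of all genes. Each scaling alone called 2 of the 10 higher, with 3 lower as deposited and 4 lower after quantile normalization. Hgf and Vegfd differed at least 2-fold on both scalings, as 2.51% of all genes did. The median difference of the 10 genes was 0.045 as deposited and -0.13 after quantile normalization, against 0.26 and -0.004 over all genes.

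**Figure D1:**
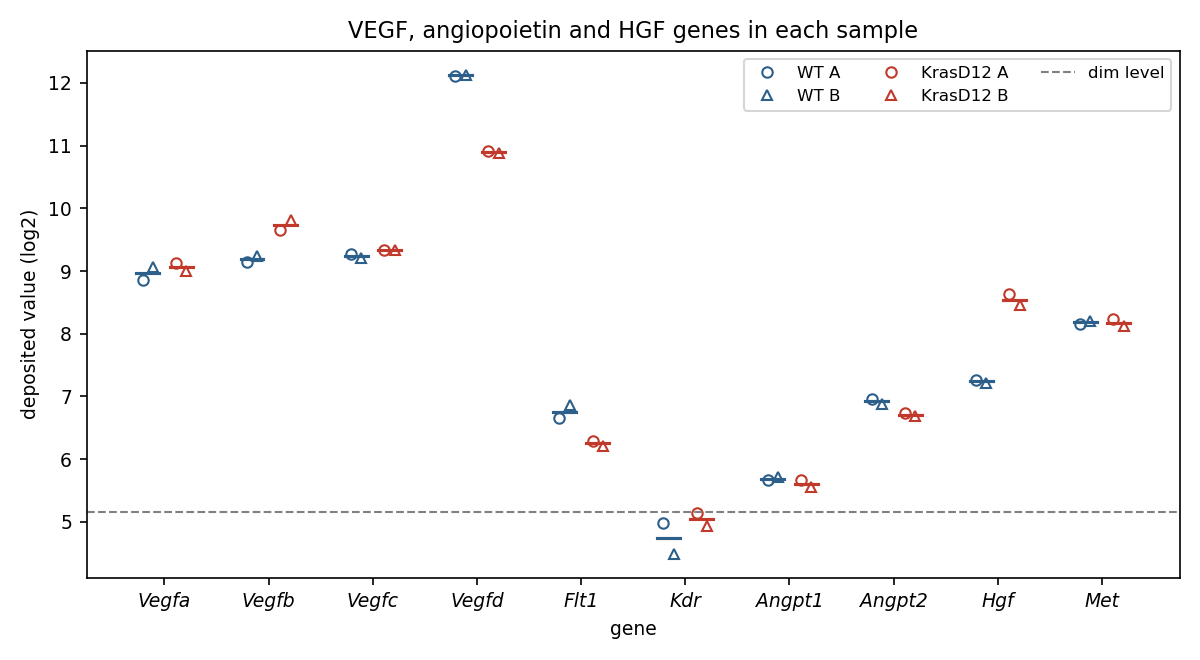
Deposited log2 value (vertical axis) of each of the 10 genes (horizontal axis) in the 4 samples, WT in blue and KrasD12 in red, circles for sample A and triangles for sample B, with a bar at each group mean and a dashed line at the dim level of 5.15. The groups stand apart most for Hgf, with 7.22 and 7.27 in WT against 8.46 and 8.63 in KrasD12, and for Vegfd, with 12.11 and 12.13 against 10.88 and 10.92.

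Promoter sequence from RefSeq (build GRCm38.p6) is shown for the genes that rose or fell, as far as the table holds them, to set their start regions side by side. The table matched 8 of the 10 genes, and Angpt1 and Angpt2 had no entry. Each line gives the 250 bases before a start site, 5′ to 3′ along the gene. Capitals mark matches, on either strand, to the hypoxia response core (ACGTG or GCGTG), the ETS core (GGAA), the AP-1 site (TGANTCA) or the GC box (GGGCGG). For Hgf the first of 2 listed start sites is shown.
Hgf, chr5:16553245-16553494, plus strand: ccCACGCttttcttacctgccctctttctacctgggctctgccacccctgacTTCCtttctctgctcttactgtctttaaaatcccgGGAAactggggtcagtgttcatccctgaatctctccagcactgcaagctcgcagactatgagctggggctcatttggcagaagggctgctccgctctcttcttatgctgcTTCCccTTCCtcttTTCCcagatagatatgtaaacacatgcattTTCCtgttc
Vegfb, chr19:6987652-6987901, minus strand: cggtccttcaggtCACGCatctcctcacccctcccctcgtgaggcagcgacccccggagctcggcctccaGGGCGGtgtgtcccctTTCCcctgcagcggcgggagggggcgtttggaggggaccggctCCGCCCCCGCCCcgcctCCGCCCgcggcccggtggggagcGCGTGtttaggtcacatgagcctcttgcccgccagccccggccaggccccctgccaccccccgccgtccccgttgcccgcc
Vegfd, chrX:164373272-164373521, plus strand: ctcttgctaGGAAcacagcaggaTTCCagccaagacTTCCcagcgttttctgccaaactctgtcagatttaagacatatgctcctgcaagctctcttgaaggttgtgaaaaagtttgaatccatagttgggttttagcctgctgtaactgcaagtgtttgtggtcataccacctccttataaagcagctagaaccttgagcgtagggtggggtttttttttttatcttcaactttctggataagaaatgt
Flt1, chr5:147726012-147726261, minus strand: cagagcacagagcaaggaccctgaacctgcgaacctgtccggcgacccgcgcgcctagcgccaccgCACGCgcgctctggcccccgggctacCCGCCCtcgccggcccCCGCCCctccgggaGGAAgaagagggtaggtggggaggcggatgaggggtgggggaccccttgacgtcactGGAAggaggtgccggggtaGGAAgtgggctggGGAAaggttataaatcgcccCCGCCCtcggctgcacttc

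In these windows no match overlapped a match of another motif. The Hgf window held 1 hypoxia response core and 6 ETS cores, and that of its second start site, at chr5:16553651-16553900, held 4 ETS cores and none of the other motifs. Vegfb had 2 hypoxia response cores, 1 ETS core and 4 GC boxes in a window of 76.4% G and C. Vegfd, at 42.4% G and C, had 3 ETS cores only. Flt1 had 1 hypoxia response core, 4 ETS cores and 3 GC boxes. Of the genes not called, Vegfa had 6 ETS cores and 2 GC boxes at its first start site (chr17:46032378-46032627, minus strand). The window of its second start site lies further along the gene, at chr17:46025164-46025413. It held 2 hypoxia response cores, 2 ETS cores and 1 GC box. Met, the only gene of the 8 with an AP-1 site, also had 3 matches to the hypoxia response core. Of these, 2 are the same CACGTG stretch read on either strand. Vegfc had 1 ETS core and 2 GC boxes, and Kdr had 2 hypoxia response cores, 4 ETS cores and 2 GC boxes. Over 32841 windows of the same length, 38.6% held a hypoxia response core, 93.45% an ETS core, 6.75% an AP-1 site and 32.75% a GC box. A match describes the letters and is not evidence of binding.

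Among the VEGF ligands, 1 fell, 1 rose and 2 stayed uncalled. Vegfd, a ligand of lymphatic VEGF receptors, stood at 12.11 in WT A and 12.13 in WT B, and at 10.92 in KrasD12 A and 10.88 in KrasD12 B. Both KrasD12 samples were below both WT samples, with a gap between A and B of 0.04 in KrasD12 and 0.02 in WT. It fell by 1.22 ± 0.07 (limma adjusted p = 0.000418), where ± gives limma's SE and n is 2 per group throughout, which puts WT 2.33-fold above KrasD12. After quantile normalization the difference was -1.09 ± 0.07 (limma adjusted p = 0.000145). As deposited, the median difference of the 198 genes with a mean within 0.5 of that of Vegfd was -0.1475.

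Vegfb, a ligand of FLT1, was 9.15 and 9.24 in WT A and B and 9.66 and 9.82 in KrasD12 A and B. Both KrasD12 values lay above both WT values. It rose by 0.545 ± 0.09, or 1.46-fold (limma adjusted p = 0.00408, n = 2 in each group), and by 0.48 ± 0.09 after quantile normalization (limma adjusted p = 0.00622). Centring each column on its median left 0.20 and no call (limma adjusted p = 0.0893). On the quantile scale the call was also lost without KrasD12 B (0.39 higher at limma adjusted p = 0.0585), without WT A (0.0776) and without WT B (0.0558).

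Vegfa, the main angiogenic ligand, was 8.86 and 9.07 in WT A and B and 9.12 and 9.0 in KrasD12 A and B. The groups overlapped. Its difference was 0.095 ± 0.10 with a 95% interval of -0.152 to 0.342 (limma adjusted p = 0.428), and 0.01 after quantile normalization with an interval of -0.217 to 0.236. Vegfc, the ligand of FLT4, was 9.27 and 9.20 in WT and 9.33 in both KrasD12 samples. The KrasD12 values lay just above those of WT, and the difference of 0.095 ± 0.07 was not called (95% interval -0.076 to 0.266, limma adjusted p = 0.265). It was 0.01 after quantile normalization (interval -0.164 to 0.192). Centring the columns on their medians turned it to -0.25, called lower (limma adjusted p = 0.0306). Cyclic loess scaling gave 0.04 and no call (limma adjusted p = 0.719). Each gene has 1 row, so splice forms of Vegfa and of the other genes were not resolved.

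Of the VEGF receptors, Flt1 fell. Flt1 encodes a receptor that also exists in a secreted form that traps ligand. It was 6.65 and 6.86 in WT A and B and 6.29 and 6.21 in KrasD12 A and B. Both KrasD12 values lay below both WT values, by more than the gaps of 0.08 and 0.21 between A and B. The fall was 0.505 ± 0.09, with WT 1.42-fold above KrasD12 (limma adjusted p = 0.00698), and after quantile normalization the difference was -0.82 ± 0.09 (limma adjusted p = 0.00108). Genes of like mean lay 0.315 higher in KrasD12 on the deposited scale, so Flt1 moved against them.

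Kdr, the main signalling receptor for VEGF-A, was below the dim level. It was 4.99 and 4.49 in WT A and B and 5.14 and 4.94 in KrasD12 A and B. The groups overlapped, no sample reached 5.15, and WT A and B were 0.50 apart, the widest such gap among the 10 genes. The difference was 0.30 ± 0.18 as deposited (95% interval -0.145 to 0.745, limma adjusted p = 0.188) and turned to -0.10 after quantile normalization (interval -0.496 to 0.291). Of 13 endothelial markers, 5 had a mean above the dim level, namely Cldn5 (5.60 to 6.16), Vwf (5.86 to 6.19), Egfl7 (6.08 to 6.85), Ecscr (5.81 to 6.35) and Ramp2 (5.71 to 6.95). Pecam1, Cdh5, Emcn and Erg lay below it in all 4 samples. The log2 of the summed linear level of the 13 was 9.35 and 9.475 in KrasD12 against 9.01 and 9.03 in WT as deposited, and 9.185 and 9.285 against 9.20 and 9.215 after quantile normalization. On both scalings 1 marker, Ramp2, rose (1.205) and 1, Ecscr, fell (-0.34), beside 22.4% and 11.5% of all genes. As deposited 9 endothelial markers were called higher and 1 lower. After quantile normalization 1 was called higher and 2 lower, the second being Cdh5 (-0.36, limma adjusted p = 0.00958).

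**Figure D2:**
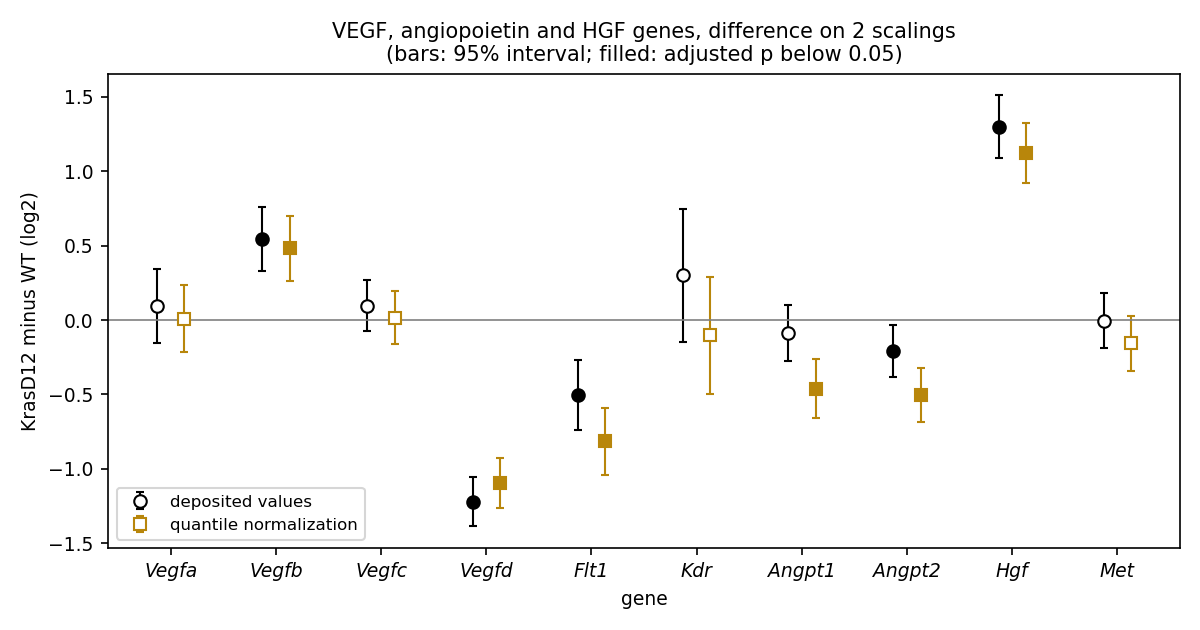
Difference KrasD12 minus WT in log2 units (vertical axis) for each gene (horizontal axis), black circles on the deposited values and ochre squares after quantile normalization, with 95% intervals from limma; filled symbols have an adjusted p below 0.05. Hgf and Vegfb lie above 0 and Vegfd, Flt1 and Angpt2 below 0 with filled symbols on both scalings, while Angpt1 is filled only after quantile normalization, at -0.46, and Kdr changes sign from 0.30 to -0.10.

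Both angiopoietins were lower in KrasD12 after quantile normalization, and Angpt2 was called on both scalings. Angpt2, the context-dependent antagonist of TEK, was 6.96 and 6.88 in WT A and B and 6.73 and 6.69 in KrasD12 A and B. The groups did not overlap, as was so for 6 of the 10 genes and 83.0% of all genes. It fell by 0.21 ± 0.07 as deposited (limma adjusted p = 0.0451), or 1.16-fold, and by more on the quantile scale (-0.50 ± 0.08, limma adjusted p = 0.00289). Its deposited call is close to the threshold and was lost with eBayes fitted with a trend (limma adjusted p = 0.0519).

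Angpt1, the TEK agonist that mural cells and fibroblasts make, was 5.66 and 5.72 in WT and 5.66 and 5.55 in KrasD12. WT A and KrasD12 A had equal values, and the deposited difference was -0.085 ± 0.07 (95% interval -0.274 to 0.104, limma adjusted p = 0.358). After quantile normalization it was -0.46 ± 0.08 and called (limma adjusted p = 0.00523). The 3293 genes of like mean lay 0.385 higher in KrasD12 on the deposited values. Angpt1 was also called lower with columns centred on their medians (-0.43, limma adjusted p = 0.00575). Cyclic loess scaling gave -0.48, called lower (limma adjusted p = 0.00459). The call of Angpt1 thus depends on the scaling and was absent only on the deposited values. On the quantile scale it was lost without KrasD12 B, WT A or WT B (limma adjusted p = 0.0503, 0.0564 and 0.0639).

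Hgf, the ligand of MET, had with Vegfd the largest differences of the 10 genes, and which of the pair differed more changed with the scaling and with the sample left out. It was 7.27 and 7.22 in WT A and B and 8.63 and 8.46 in KrasD12 A and B. Every KrasD12 value exceeded every WT value by over 1 log2 unit, against gaps between A and B of 0.17 and 0.05. It rose by 1.30 ± 0.08, or 2.46-fold (95% interval of the log2 difference 1.088 to 1.512, limma adjusted p = 0.000573), and by 1.12 ± 0.08 after quantile normalization (limma adjusted p = 0.000241). Genes of like mean lay 0.185 higher in KrasD12.

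Met, the receptor of HGF, was 8.16 and 8.20 in WT and 8.23 and 8.12 in KrasD12. The groups overlapped and the difference was -0.005 ± 0.07 (95% interval -0.190 to 0.180, limma adjusted p = 0.957). After quantile normalization it was -0.16 (interval -0.339 to 0.026, limma adjusted p = 0.134). Centring the columns on their medians gave -0.35 and a call (limma adjusted p = 0.012). Cyclic loess scaling gave -0.17 and no call (limma adjusted p = 0.11).

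Leaving out 1 sample ended most calls on the deposited values. Without WT A or WT B limma called 0 of the 19938 genes, of which 9846 and 10022 had an unadjusted p below 0.05. Both of these fits leave 1 WT sample. Hgf differed by 1.325 without WT A and 1.275 without WT B, and Vegfd by -1.23 and -1.21. Without KrasD12 A or KrasD12 B both stayed called on the deposited values (limma adjusted p = 0.0440 and 0.0486). Vegfb lost its deposited call without KrasD12 B (0.465, limma adjusted p = 0.0607), WT A (0.50, 0.0862) and WT B (0.59, 0.0716). Flt1 lost its deposited call without each of the 4 samples (limma adjusted p from 0.0559 without WT A to 0.127 without KrasD12 B), and so did Angpt2 (0.0833 without WT B to 0.141 without KrasD12 B). On the quantile scale Hgf, Vegfd, Flt1 and Angpt2 stayed called without any 1 sample, with limma adjusted p of at most 0.0328, 0.0328, 0.0454 and 0.0473.

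**Figure D3:**
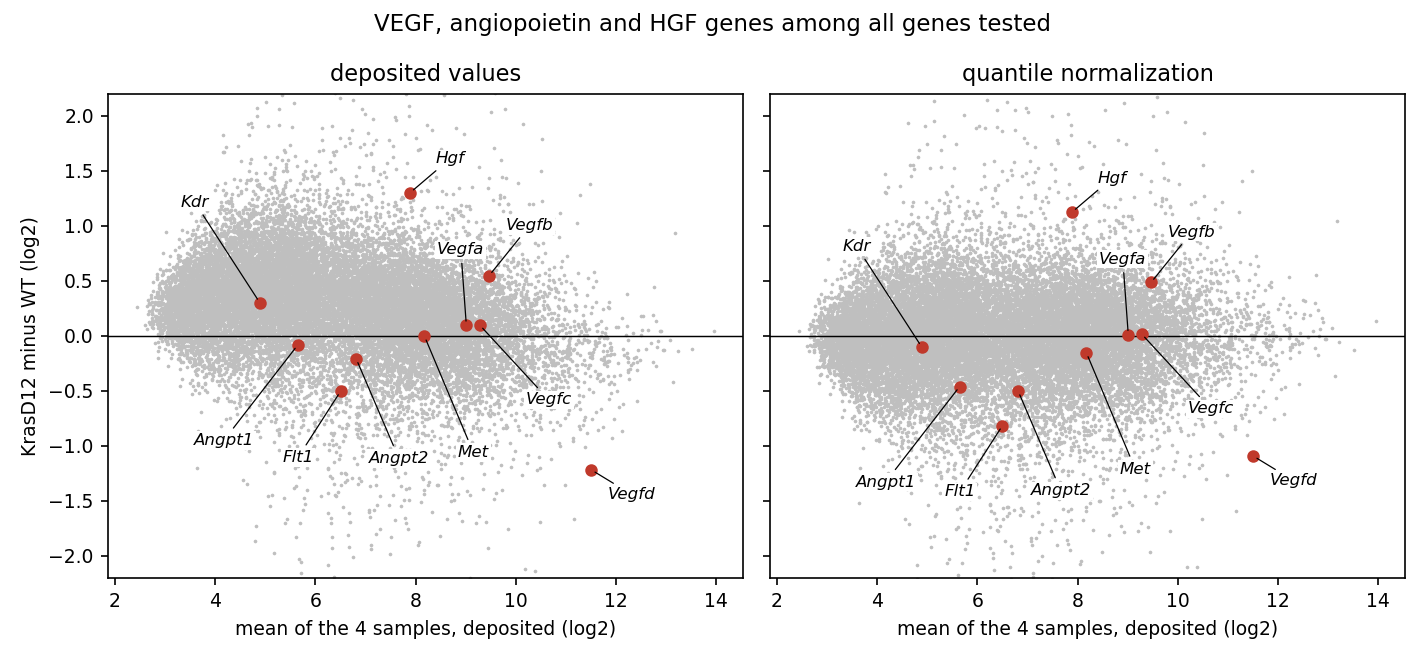
Difference KrasD12 minus WT in log2 units (vertical axis) against the mean deposited log2 value of the 4 samples (horizontal axis), for all 19938 genes in grey and the 10 named genes in red, on the deposited values (left) and after quantile normalization (right). The axis stops at 2.2 in either direction, which leaves out 70 genes on the left and 63 on the right. The grey cloud lies above 0 at low means on the left and is centred near 0 on the right; Hgf and Vegfd keep their places in both.

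The values of Hgf over the 4 samples, each gene centred on its own mean, were closest to those of Hmcn1 (Euclidean distance 0.04 log2 units), Septin4 (0.04) and Mef2c (0.05) among all genes. These differed by 1.26, 1.27 and 1.325. Closest to Vegfd were 4930447C04Rik (0.02), Ogn (0.05) and Pcdh10 (0.06), at -1.20, -1.205 and -1.185. With 4 samples in 2 groups, any gene with a like difference and small gaps between A and B lies close.

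The other genes of these pathways were counted in 5 lists with 54 genes, of which 53 had a row. On both scalings 16 rose and 8 fell and 29 were not called on both, beside 22.4% and 11.5% of all genes. Without WT A or WT B limma called 0 of them on the deposited values. Their median difference was 0.20 as deposited and -0.004 after quantile normalization.

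Of 11 other VEGF and angiopoietin ligands, receptors and co-receptors, 2 rose and 3 fell, beside 22.4% and 11.5% of all genes. The falls included genes of 2 extracellular proteins known from lymphatic vessel development. Svep1, a large adhesion protein of the matrix, was 11.01 and 11.07 in WT and 9.80 and 9.84 in KrasD12 (-1.22 ± 0.07, limma adjusted p = 0.000438). Ccbe1, a cofactor for VEGF-C cleavage, was 9.09 and 9.15 in WT and 8.28 and 8.30 in KrasD12 (-0.83 ± 0.07, limma adjusted p = 0.000825). The groups did not overlap for either gene. Adamts3, the protease that cleaves VEGF-C, was not called (0.20, limma adjusted p = 0.0724, or -0.12 after quantile normalization). The third fall was that of Angpt4, a TEK ligand (-0.605), named here after its value was seen. Ptprb, the endothelial phosphatase that acts on TEK, rose by 0.80 ± 0.11 and Pgf, a further FLT1 ligand, by 0.71 ± 0.10. On the quantile scale these rises were 0.42 and 0.34. In WT A and B Ptprb stood at 5.39 and 5.15 and Pgf at 5.56 and 5.29, near the dim level. Flt4, Tek and Tie1, receptors of endothelium, were called higher as deposited (0.385, 0.36 and 0.595) but not after quantile normalization (0.13, -0.02 and 0.21). Nrp1 and Nrp2, co-receptors for VEGF, were not called on either scaling.

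Of 10 genes that activate or inhibit HGF or are related to it, 2 rose and 2 fell, beside 22.4% and 11.5% of all genes. St14, a membrane protease that can cut pro-HGF, was 5.0 and 5.29 in WT and 6.07 and 6.22 in KrasD12 (1.00 ± 0.12, limma adjusted p = 0.00188), with a WT mean of 5.145 just under the dim level and a difference of 0.64 after quantile normalization. Hgfac, the circulating HGF activator, rose by 0.66 ± 0.06, or 0.28 after quantile normalization, from 5.39 and 5.37 in WT, near the dim level. Spint2, an inhibitor of these proteases, was 6.68 and 6.91 in WT and 5.76 and 5.94 in KrasD12, with no overlap (-0.945 ± 0.11, limma adjusted p = 0.00178, and -1.27 after quantile normalization). Plat, the tissue plasminogen activator gene, fell by 0.705 ± 0.07. Plau, Spint1, Mst1, Mst1r, Hpn and Cd44 were not called on both scalings.

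Among 11 receptor adaptors and regulators of receptor turnover, 6 rose and 1 fell, beside 22.4% and 11.5% of all genes. The adaptor gene Shc1 was 9.90 and 10.04 in WT and 10.81 and 10.82 in KrasD12 (0.845 ± 0.08, limma adjusted p = 0.00105). Plcg1, a phospholipase recruited by these receptors, rose by 0.715 ± 0.07, Shc2 by 0.585 and the ubiquitin ligase gene Cbl by 0.515. After quantile normalization they differed by 0.86, 0.65, 0.45 and 0.39. Centring the columns on their medians left 0.17 for Cbl (limma adjusted p = 0.149), 0.125 for Cblb (0.185) and 0.13 for Dab2ip (0.178), none of them called. The fall was that of Ptpn11 (-0.225), a phosphatase that relays receptor signals, named here after its value was seen. The median of this list was 0.47 as deposited and 0.32 after quantile normalization, against 0.26 and -0.004 for all genes.

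Of 9 genes of oxygen sensing, an input to Vegfa transcription, 3 rose and 1 fell, beside 22.4% and 11.5% of all genes. Hif1a, the oxygen-regulated subunit of the hypoxia factor, was 10.47 and 10.44 in WT and 10.21 and 10.13 in KrasD12 (-0.285 ± 0.07, limma adjusted p = 0.0168). Hif1an and Egln2, hydroxylases that restrain that factor, rose by 0.505 ± 0.09 and 0.47 ± 0.08. Their calls were lost when the columns were centred on their medians (0.16 and 0.125, limma adjusted p = 0.192 and 0.252). After quantile normalization 3 of the 9 genes were called higher and 4 lower. Vhl and Egln3 were among the 4 (-0.30 and -0.75, limma adjusted p = 0.0212 and 0.00663) but were not called as deposited. Egln1 was not called on either scaling. Hif3a rose by 0.725 and stayed under the dim level in each sample.

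Of 13 listed inhibitors of angiogenesis 12 were measured (Vash1 had no row). Of these 3 rose and 1 fell, beside 22.4% and 11.5% of all genes. Tnmd, a tendon-associated inhibitor, was 3.98 and 3.86 in WT, below the dim level, and 5.42 and 5.63 in KrasD12 (1.605 ± 0.10, limma adjusted p = 0.000511, and 1.215 after quantile normalization). Svbp, the partner of vasohibins, rose by 0.74 ± 0.08 and the protease gene Adamts1, whose product binds VEGF-A, by 0.48 ± 0.065. Centring the columns left 0.135 and no call for Adamts1 (limma adjusted p = 0.156). Sparc, a matricellular protein, fell by 0.87 ± 0.07. The thrombospondin genes Thbs1 and Thbs2 were not called, at -0.04 and -0.13 as deposited and 0.07 and 0.01 after quantile normalization.

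**Figure D4:**
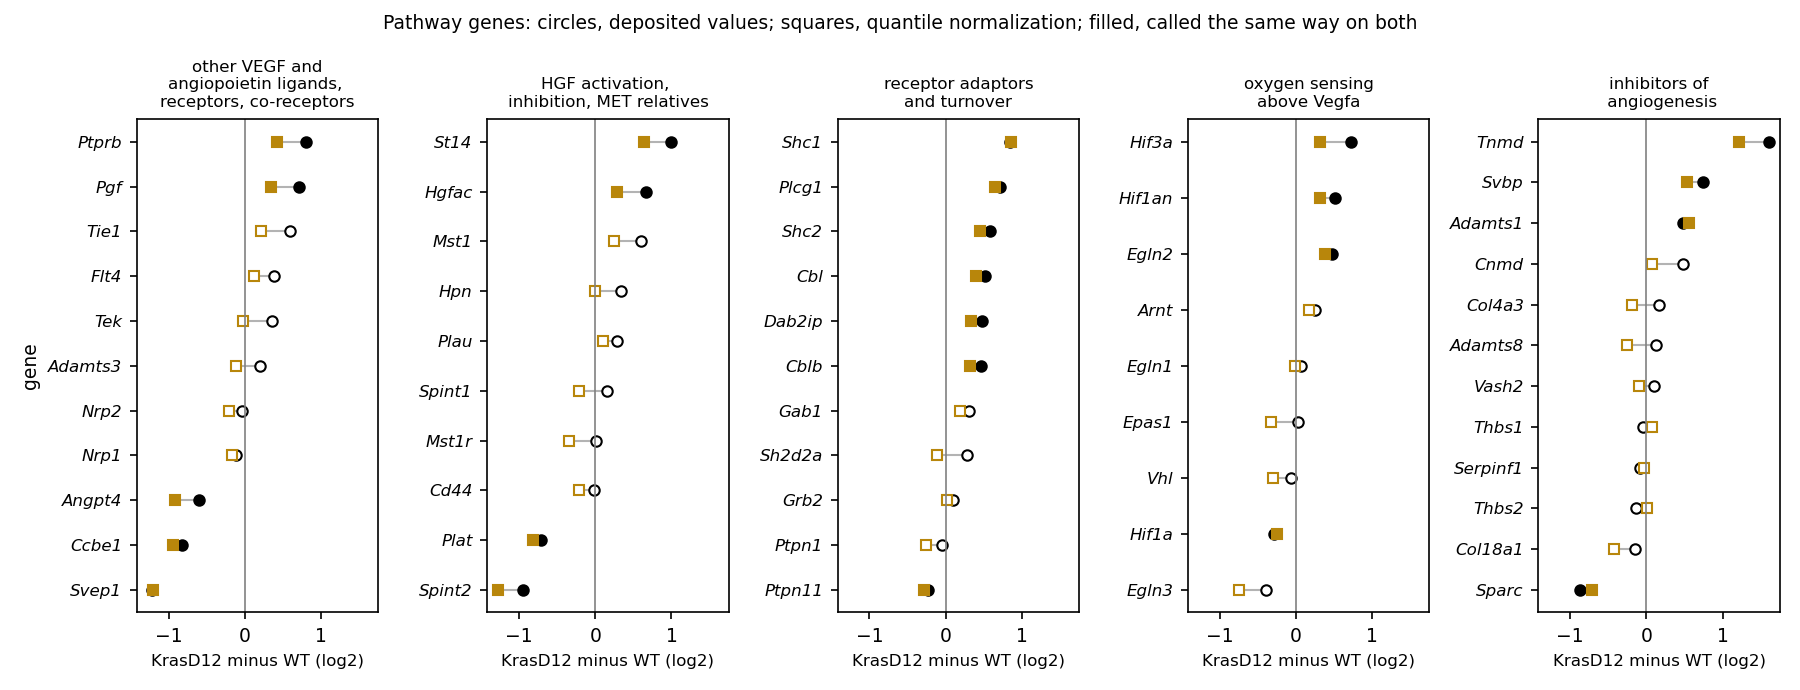
Difference KrasD12 minus WT in log2 units (horizontal axis) of each gene (vertical axis) in the 5 pathway lists, circles on the deposited values and squares after quantile normalization, joined by a line; filled symbols mark genes called in the same direction on both. Svep1, Spint2 and Sparc have the lowest deposited values of their lists and Tnmd, at 1.605, the highest of all 53 genes.

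Markers of other cells were set beside these results. Their counts of rises and falls stand beside 22.4% and 11.5% of all genes. Of 12 leukocyte markers 6 had a mean above the dim level, such as Cd68 (5.73 to 6.74), and 4 lay below it in all 4 samples, among them Ptprc, the general leukocyte marker. Of 14 epithelial markers 10 had a mean above it, such as Krt8 (6.13 to 6.78) and Ager (6.20 to 6.88), and 2, Epcam and Scgb1a1, lay below it in all 4 samples. Of the leukocyte markers 3 rose and 3 fell. The 3 that rose, Adgre1, Cd79a and Fcer1g, had means below the dim level (3.88, 3.89 and 4.815). The 3 that fell, Cd14, Csf1r and Lyz2, had means above it (6.01, 5.195 and 5.37). Lyz2 was at 6.01 and 6.20 in WT and at 4.56 and 4.70 in KrasD12. The log2 summed level of the leukocyte list was 8.94 and 8.91 in KrasD12 and 8.75 and 8.81 in WT as deposited, and 8.77 and 8.70 against 8.93 and 8.985 after quantile normalization. Of 9 pericyte and mural markers 2 rose and 1, the smooth-muscle myosin gene Myh11, fell by 1.56, and the summed level was 9.36 and 9.47 in KrasD12 against 9.465 and 9.37 in WT, or 9.225 and 9.32 against 9.593 and 9.496 after quantile normalization. Of the epithelial markers 2, the surfactant genes Sftpc and Sftpb, rose. As deposited 10 epithelial markers were called higher and 0 lower. After quantile normalization 2 others, Epcam and Krt19, were called lower (-0.31 and -0.48, limma adjusted p = 0.0166 and 0.0162). Sftpc had a mean of 4.805, below the dim level. Sftpb had a mean of 5.60 and differed by 0.32 after quantile normalization (limma adjusted p = 0.0425). The summed level of the epithelial list was 9.54 and 9.68 in KrasD12 against 9.16 and 9.17 in WT. After quantile normalization it was 9.38 and 9.49 against 9.35 and 9.35. Of 5 mesothelial markers 2 were called higher as deposited and 2 others lower after quantile normalization. The part of any of these cells in the values of the 10 genes was not tested.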

How the data were processed

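The data are 4 arrays of total RNA from cultured mouse lung fibroblasts, 2 per genotype. The authors deposited log2 values, 1 per array row and sample, a scale read from the values themselves (2.28 to 14.95). The Transcriptome Analysis Console is named per the submitters' processing notes. How it was set, background correction and normalization included, is not given in the sources used here. Precision is limited by the number of arrays, which leaves 2 residual degrees of freedom.

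The platform annotation gave 21789 of 28944 rows exactly 1 symbol, 1621 several and 5534 none; 21698 matched the GRCm38.p6 gene table by gene ID. The row with the highest mean stood for a gene. limma 3.58.1 (R 4.3.3, with lmFit and eBayes, two-sided) was fitted on all 19938 genes and run on simulated data. The simulation had no shift between the columns of the groups, so it does not bear on the scaling. Quantile, median and cyclic loess scalings used all rows. Tables and plots used pandas 2.3.3 and matplotlib 3.10.9. Further alternatives were a replicate block, a filter on dim genes, the mean of a gene's rows, eBayes with a trend or robust, and each sample left out; quantile scaling combined with the block or with a left-out sample was chosen after seeing the data. Named pathway genes are up to 4 called members per list with the largest differences, and others are named for contrast after their values were seen. The 10 genes and all lists were chosen with earlier results of these data known. No protein sequences were used here.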

Additional observations from a re-analysis of the deposited data

How the results depend on the processing

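The fits rest on 2 samples per group and 2 residual degrees of freedom, and the labels do not say that A and B are separate cultures. The deposited scaling sets most counts. Of the 10 genes, 2 were called higher and 3 lower as deposited, 1 and 6 with columns centred on their medians. Over all 19938 genes, calls higher and lower numbered 9991 and 2381 as deposited, 4485 and 4861 after quantile normalization, 3574 and 6657 with centred columns, and 4533 and 4933 after cyclic loess. Over the 53 pathway genes they numbered 26 and 8, 16 and 15, 11 and 22, and 16 and 16. Leaving out each sample gave 0 to 2 of the 10 genes higher and 0 to 1 lower, 0 to 4623 and 0 to 1160 of all genes, and 0 to 12 and 0 to 5 of the pathway genes, on the deposited values. Alternatives chosen after seeing the data joined quantile normalization to a left-out sample or to the block. Without KrasD12 A, KrasD12 B, WT A and WT B in turn, these called 2, 1, 1 and 1 of the 10 genes higher and 4, 3, 3 and 3 lower. Of all genes they called 2242, 1963, 1750 and 1948 higher and 2546, 2461, 2097 and 2363 lower, and of the pathway genes 8, 6, 8 and 7 higher and 8, 7, 6 and 6 lower. Fitting the letter as a replicate block left 2 of the 10 genes higher and 2 lower on the deposited values, where Angpt2 lost its call (limma adjusted p = 0.0617), 8350 and 1910 of all genes, and 22 and 7 pathway genes. With quantile normalization and the replicate block the counts were 4521 and 4873 of all genes and 16 and 14 pathway genes. Deviations of same-lettered samples correlated at 0.0132 over all genes, so the letters do not show a pairing. The differences of 4 genes that were not called as deposited changed sign. Vegfa gave -0.25 with centred columns, -0.01 to 0.20 with 1 sample left out (lowest without WT A), and -0.04 and -0.0919 on the quantile scale without KrasD12 A and WT A. Vegfc gave -0.25 with centred columns, where it was called lower (limma adjusted p = 0.0306), and -0.0013 and -0.0225 on the quantile scale without KrasD12 B and WT B. Kdr gave -0.1025 after quantile normalization with or without the block, -0.045 with centred columns, -0.0995 after cyclic loess, and -0.2225 and -0.34 on the quantile scale without KrasD12 A and WT B. Met gave -0.06 to 0.05 with 1 sample left out, with 0.05 without KrasD12 B and 0.015 without WT B. The cause of these changes was not tested.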
